A study of Homo sapiens with 18 samples.

Results

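The libraries of UM-UC-3 replicate 3 were compared with those of replicates 1 and 2. UM-UC-3 is an established human bladder transitional cell cancer line, labelled wild type, and its cells were transfected by lipofection with either a control siRNA (siNC) or 1 of 2 siRNAs against ACAT1 (siACAT1-1 and siACAT1-2). ACAT1 encodes a mitochondrial acetyl-CoA acetyltransferase. Of the 18 mRNA sequencing libraries of the series, 9 were from UM-UC-3 cells. Replicate 3 comprised 3 of these, 1 for each siRNA, and replicates 1 and 2 comprised the other 6, so both sides held the same siRNAs in the same proportions. The other 9 libraries were from T24 bladder cancer cells treated in the same way. The labels call each number a biological replicate but do not say what the libraries of a number share. Neither they nor the study's methods give a date, passage or batch, so a number is treated below as a label only.

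The contrast was chosen by its measured values, since replicate 3 was known to stand apart in these counts. Its differences are therefore given as a description without p values, as log2 fold changes ± SE from an edgeR fit with the siRNA as a covariate. A gene was counted as higher or lower when its replicate 3 library lay beyond both other libraries of the same siRNA in each of the 3 siRNA groups. Tests are given only for what the choice did not use, which was the interaction with the siRNA and the T24 libraries.

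Cells adjust protein synthesis through linked transcript programmes. In the integrated stress response, phosphorylation of the translation factor eIF2 favours translation of ATF4, which activates genes of amino acid synthesis, amino acid transport and tRNA charging. In the unfolded protein response, IRE1, PERK and ATF6 sense misfolded protein in the endoplasmic reticulum and raise its chaperones, while HSF1 serves the cytosolic chaperones. Replication genes are controlled mainly by E2F factors and are transcribed as cells enter S phase, and sterol and fatty acid synthesis genes are controlled by SREBP factors.

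The 9 libraries held 28224125 to 32088180 counted reads, and the totals of replicate 3 lay within the range of the other libraries. No pair of libraries of 1 siRNA looked like a library deposited again, as their counts were further apart than sampling allows (9 pairs, chi-square over degrees of freedom 11.8 to 121). Genes of the mitochondrial genome took 4.34 to 5.01% of the counts in replicate 3 and 5.72 to 6.17% in the others, and ribosomal protein genes took 8.00 to 8.57% and 5.86 to 7.92%. Genes with at least 1 count numbered 25838 to 26125 and 25317 to 25794. These 3 measures did not overlap between the groups, and their part in the results was not tested.

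The cell line markers KRT8 (27.8 to 40.5 RPKM in replicate 3, 28.7 to 45.2 in the others), KRT18 (96.6 to 138 and 98.6 to 161) and VIM (193 to 306 and 184 to 290) were present at overlapping levels, whereas KRT7 of the same list was higher in replicate 3 (5.15 to 7.22 and 1.94 to 3.72) without overlap. RPKM is the deposited level, scaled for gene length and for the reads counted on genes. EPCAM and CDH1, which mark epithelial cells, were at most 0.111 RPKM in all 9 libraries. The 50 genes richest in T24 cells and nearly absent from UM-UC-3 replicates 1 and 2 summed to 1.06 to 1.25 RPKM in replicate 3, 0.595 to 1.59 in the others and 629 to 1295 in T24 cells. Endothelial markers summed to 1.69 to 1.96 RPKM in replicate 3 and 1.49 to 2.28 in the others, with 5 of 8 under 0.1 in all 9 libraries. Fibroblast markers summed to 7.13 to 9.87 and 10.02 to 14.3, with 3 of 11 under 0.1 RPKM, and THY1 made up most of that sum. The immune list summed to 165 to 224 and 135 to 207, nearly all of it CD68, a lysosomal gene most of whose exon bases overlap another annotated gene. The leukocyte marker PTPRC was at most 0.00847 RPKM.

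Between replicate 3 and the other UM-UC-3 libraries, 540 of 18314 genes tested were at least 2-fold higher in replicate 3 and 423 were at least 2-fold lower, which was 2.95% and 2.31% of the genes. Without the limit on size, 3437 genes (18.8%) were higher and 3428 (18.7%) lower in all 3 siRNA groups. The median log2 fold change of all genes was 0.0057, which the scaling of the libraries holds near 0, so the differences below are relative to the typical gene. The median absolute log2 fold change was 0.282, against 0.154 for the mean of both ACAT1 siRNAs over siNC in the same fit. By replicate 3, 67.7% of genes differed more than by that mean. Replicate 3 was chosen as a larger source of variance than the siRNA, so these values restate the choice. The mean also shrinks effects on which the siRNAs differ. LINC01518 (1.002) and DLEU2_4 (-1.001) lay just inside the 2-fold limit, and TCEA1 (0.997) and CCDC121 (-0.999) just outside it. The count of lower genes was 645 when siNC replicate 3 was left out and order was needed in the other 2 siRNA groups only. On the log2(RPKM + 1) scale, which shrinks differences of genes at low levels, 169 genes were at least 2-fold higher and 83 lower.

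In a principal component analysis of log2 CPM (counts scaled to the library total, adjusted by the scaling factors of the fit), the first component held 38.6% of the variance and the second 18.3%. The replicate 3 libraries had first-component scores of 30.3 (siNC), 59.8 (siACAT1-1) and 42.9 (siACAT1-2). The other 6 lay between -43.7 and 11.6, and the highest of these was siACAT1-1 replicate 1. Replicate 3 therefore lay at 1 end of the first component, at a greater distance from replicate 2 than from replicate 1.

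**Figure D1:**
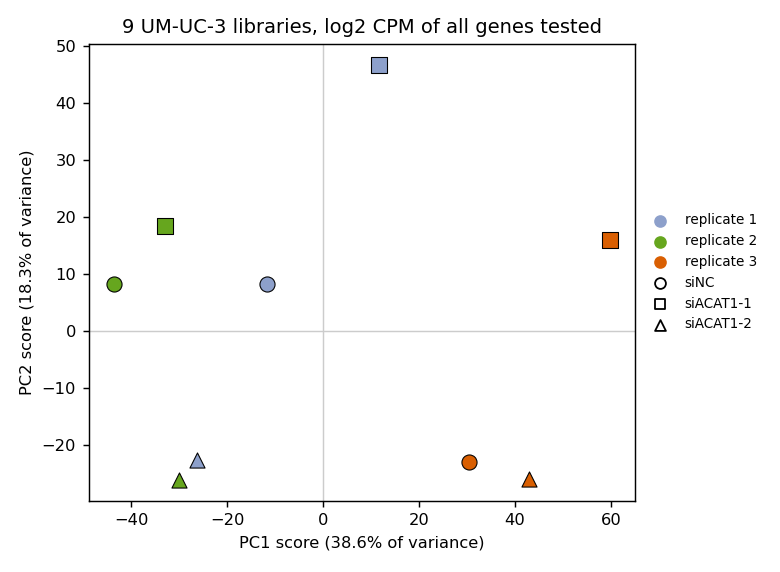
Scores of the 9 UM-UC-3 libraries on the first and second principal components of log2 CPM over all genes tested, with colours for the replicate number and symbols for the siRNA. The 3 replicate 3 libraries sit at 30.3 to 59.8 on the first component and the other 6 at -43.7 to 11.6.

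The numbers were also compared in pairs, with the replicate number as a factor of 3 levels. Replicates 3 and 1 differed at least 2-fold, in the same direction in all 3 siRNA groups, in 916 genes (5%), replicates 3 and 2 in 1655 (9.04%) and replicates 2 and 1 in 446 (2.44%). The first and second of these contrasts share the replicate 3 libraries. Replicate 3 was the number that differed most from each of the others, but replicates 1 and 2 were not alike either.

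Gene length and GC content showed little relation with the log2 fold change across genes, which are not independent (Spearman's rho -0.017 over 18314 genes and 0.034 over 18303).

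**Figure D2:**
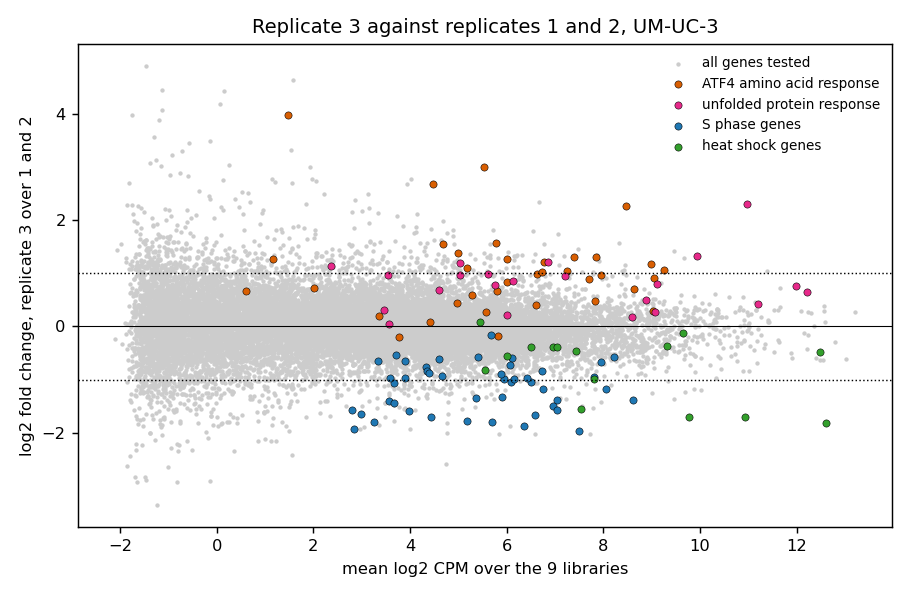
Log2 fold change of replicate 3 over replicates 1 and 2 (vertical axis) against mean log2 CPM (horizontal axis) for all 18314 genes tested, with 4 gene lists in colour and dotted lines at 2-fold. ATF4 and unfolded protein response genes lie mostly above 0, and S phase genes all lie below 0.

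Genes of the ATF4 amino acid response were higher in replicate 3. Of 37 listed genes 36 were tested, 15 were at least 2-fold higher and 0 lower, against 2.95% and 2.31% of all genes. At any size 23 were higher, against 18.8% of all genes. Every list count below is to be read beside these shares and the 18.7% of all genes that were lower at any size. Their median log2 fold change was 0.98, with medians of 0.74, 0.97 and 1.34 in the siNC, siACAT1-1 and siACAT1-2 groups. DDIT3, which encodes the stress-induced factor CHOP (chr12:57516588-57520517, minus strand, GRCh38), had 563 RPKM with siNC, 668 with siACAT1-1 and 456 with siACAT1-2 in replicate 3. In the other libraries it had 30.5, 47.0 and 351 RPKM (lowest, median and highest), and its log2 fold change was 2.26 ± 0.64. Its exons overlap those of MARS in part. All replicate 3 values lay above the others, and siNC and siACAT1-1 replicate 1, at 336 and 351 RPKM, were nearest. TRIB3, a pseudokinase gene that ATF4 and CHOP activate (chr20:362835-397559, plus strand), had 13.7, 16.4 and 13.2 RPKM in replicate 3. Elsewhere it had 0.979, 1.15 and 7.79 (2.67 ± 0.45).

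NUPR1, a small stress-induced chromatin protein gene, had 25.3, 17.5 and 15.4 RPKM in replicate 3 against 1.02, 1.74 and 4.77 (2.99 ± 0.33). GDF15, a secreted stress cytokine, had 3.01, 3.84 and 3.39 RPKM. In the others it ranged from 0 to 1.02 with a median of 0.0754 (3.98 ± 0.60), so its fold rests on few reads there. The tRNA synthetase gene AARS had 197, 175 and 172 RPKM against 53.9, 65.8 and 126 (1.18 ± 0.21), with ranges that did not overlap. ATF4 itself and the glutathione-degrading enzyme CHAC1 are given for their place in the pathway and were picked after their values were seen. ATF4 had 336, 302 and 287 RPKM in replicate 3 and 109 to 265 elsewhere (0.91 ± 0.19). CHAC1 did not follow the list, with 2.03, 1.88 and 2.45 RPKM in replicate 3 and 0.0317 to 5.96 elsewhere (0.71 ± 0.87).

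ATF4 targets were graded over the 9 libraries rather than split in 2 levels. The list median, as log2 CPM minus each gene's mean over the libraries, was 0.61 to 0.84 in replicate 3, 0.24 and 0.48 in siNC and siACAT1-1 replicate 1, and -0.77 to -0.57 in siACAT1-2 replicate 1 and all of replicate 2. Replicate 2 over replicate 1 had a median log2 fold change of -0.69, replicate 3 over 1 had 0.61 and replicate 3 over 2 had 1.31. The list moved less with the ACAT1 siRNAs, at -0.15.

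Endoplasmic reticulum chaperone and sensor genes of the unfolded protein response were also higher. All 22 were tested, 4 were at least 2-fold higher and 0 lower, 14 were higher at any size, and the median was 0.79. HSPA5, which encodes the main luminal chaperone BiP (chr9:125234853-125241330, minus strand), had 1321, 1308 and 704 RPKM in replicate 3. The other libraries had 140.4, 176 and 373 RPKM, and the log2 fold change was 2.30 ± 0.24, or 4.94-fold. HYOU1, a large chaperone of the same compartment, had 271, 236 and 141 RPKM against 69.7, 77.6 and 101 (1.32 ± 0.12). Both genes had non-overlapping ranges and were lowest in replicate 3 with siACAT1-2. XBP1, the transcription factor gene spliced by IRE1, had 40.8, 78.6 and 64.1 RPKM against 15.4, 18.5 and 55.3 (1.21 ± 0.31), and the groups overlapped through siACAT1-1 replicate 1. HERPUD1, a membrane protein gene of the degradation pathway, had 8.79, 12.3 and 8.93 RPKM against 2.11, 2.93 and 9.86 (1.19 ± 0.36) and was in order in 2 of 3 siRNA groups. The list median was 0.88 with siNC, 1.04 with siACAT1-1 and 0.24 with siACAT1-2.

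**Figure D3:**
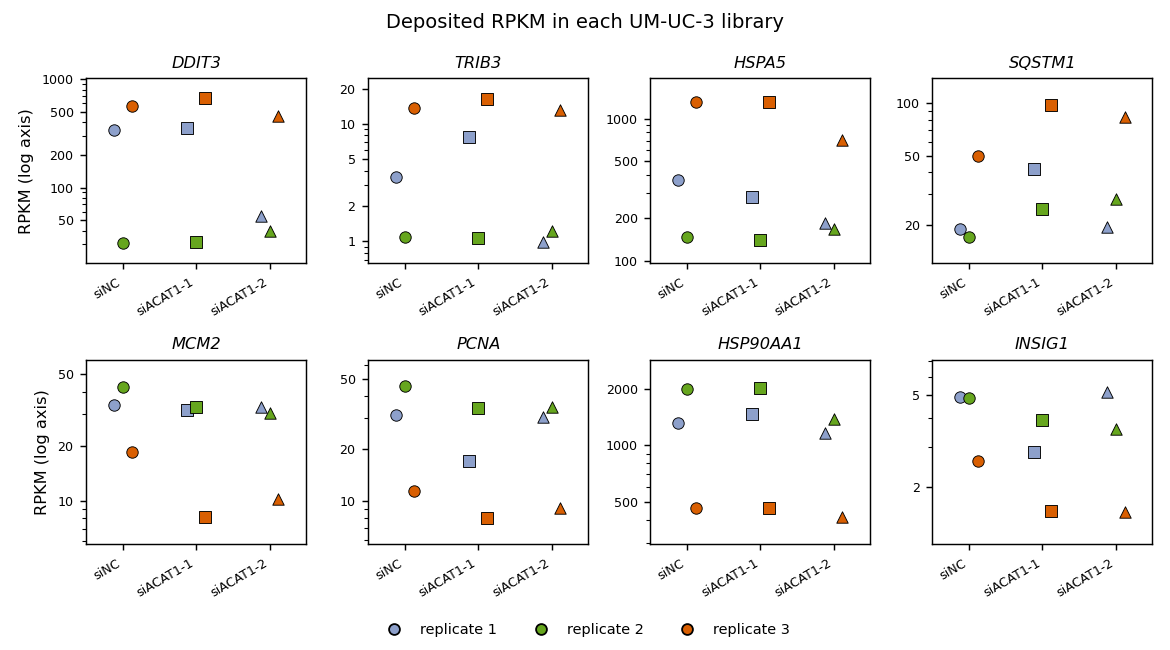
Deposited RPKM (log axes) of 8 genes in each of the 9 UM-UC-3 libraries, by siRNA on the horizontal axis and with colours for the replicate number. In every siRNA group the replicate 3 point is the highest of 3 for DDIT3, TRIB3, HSPA5 and SQSTM1 and the lowest for MCM2, PCNA, HSP90AA1 and INSIG1.

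The promoters of these lists were searched for the elements of their factors, because the members differed together. The lists here and below hold known responders of these factors. A share above that of all promoters can follow from the choice of lists and says nothing about replicate 3. Promoters were 250 bases before to 50 after the RefSeq gene start (GRCh38.p14), read on both strands. The endoplasmic reticulum stress element, searched as CCAAT, any 9 bases and CCACG, was present in 6 of 21 matched promoters of the unfolded protein response list (28.6%) and in 22 of 27305 promoters in all (0.0806%). The CEBP-ATF element TGATGNAA was present in 7 of 31 matched ATF4 list promoters (22.6%) and in 3.67% of all. CHAC1, which did not follow the list, was among the 7. Elements of these kinds are given below in capitals for 2 genes of each list, with the bases around them, in the direction of transcription. The stretches lie at chr9:125241361-125241439 (minus), chr22:28800573-28800651 (minus), chr7:97872439-97872506 (minus) and chr16:70289656-70289723 (minus). AARS is listed by RefSeq as AARS1.
HSPA5: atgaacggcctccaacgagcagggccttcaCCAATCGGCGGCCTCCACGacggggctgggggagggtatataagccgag
XBP1: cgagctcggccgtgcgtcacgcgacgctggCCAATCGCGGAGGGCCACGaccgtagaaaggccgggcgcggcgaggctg
ASNS: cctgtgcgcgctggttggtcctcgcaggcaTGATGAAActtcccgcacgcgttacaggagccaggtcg
AARS1: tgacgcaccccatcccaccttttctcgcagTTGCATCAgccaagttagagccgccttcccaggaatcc
ASNS, the asparagine synthetase gene, was picked for its element and had 34.6, 37.3 and 33.8 RPKM in replicate 3 and 7.67 to 31.7 elsewhere (1.02 ± 0.27). A match is a description of the letters and not evidence that a factor was bound.

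Cytosolic chaperone genes that HSF1 activates lay the other way. Of 16 listed genes 15 were tested, 0 were at least 2-fold higher and 4 lower, 8 were lower at any size, and the median was -0.48. HSP90AA1, the inducible HSP90 gene (chr14:102080738-102139699, minus strand), had 463, 466 and 417 RPKM in replicate 3 against 1154, 1421 and 2020 (-1.82 ± 0.15). HSPA8, the constitutive HSP70 gene, had 219.7, 115 and 161 RPKM against 155, 506 and 873 (-1.71 ± 0.49). DNAJA1, a partner of HSP70, had 143, 125 and 119 RPKM against 208, 392 and 611 (-1.71 ± 0.33), and the mitochondrial chaperone HSPE1 had 41.2, 38.1 and 44.0 RPKM against 75.2, 121 and 162 (-1.56 ± 0.18). HSPA8 overlapped between the groups and the other 3 genes did not. HSPA8 and DNAJA1 also separated replicates 1 and 2, with log2 fold changes of 1.79 and 1.20 for replicate 2 over 1. The heat shock element, searched as GAA, any 2 bases, TTC, any 2 bases and GAA, was present in 4 of 15 matched promoters (26.7%) and in 0.487% of all.

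HSPA6, a strictly inducible HSP70 gene outside that list, had the highest log2 fold change of the genes named by size. It had 0.573, 7.09 and 2.78 RPKM in replicate 3 and 0.0295, 0.0740 and 0.357 elsewhere (4.64 ± 0.46). With 731 counts in replicate 3 and 50 in the others, it could pass the filter on low counts through replicate 3 alone. Its fold rests on few reads elsewhere. The close homologues HSPA1A and HSPA1B, picked after their values were seen, were in order in 0 of 3 siRNA groups. HSPA1A had 9.57, 32.4 and 20.3 RPKM in replicate 3, 5.84 to 11.1 in replicate 1 and 29.7 to 62.1 in replicate 2, and HSPA1B ran from 12.4 to 118 RPKM over the 9 libraries. Reads that fit more than 1 HSP70 gene could be assigned differently among them, since their treatment is not stated.

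Genes of DNA replication were the most uniform of the 38 lists, by the share of tested members in order. All 46 S phase genes were tested, 24 were at least 2-fold lower and 0 higher in replicate 3, 45 were lower at any size, and the log2 fold changes ran from -1.96 to -0.15 with a median of -1.05. MCM4, a subunit of the replicative helicase, had 12.02, 7.61 and 8.18 RPKM in replicate 3 against 29.1, 31.5 and 48.1 (-1.96 ± 0.16). MCM10, which helps to activate that helicase, had 3.68, 3.90 and 3.09 RPKM against 8.00, 11.6 and 19.1 (-1.80 ± 0.19). PCNA, the sliding clamp gene (chr20:5114953-5126626, minus strand), had 11.5, 8.03 and 9.15 RPKM against 16.9, 32.6 and 45.3 (-1.78 ± 0.21). None of these ranges overlapped, and for PCNA the nearest library was again siACAT1-1 replicate 1. POLE2, a subunit of DNA polymerase epsilon, had 0.953, 0.841 and 0.736 RPKM against 2.61, 2.86 and 3.92 (-1.93 ± 0.18), and UHRF1, which maintains DNA methylation at replication forks, had 7.42, 4.66 and 5.59 RPKM against 17.5, 19.3 and 27.1 (-1.87 ± 0.15). The checkpoint adaptor CLSPN, not in the list, had 15.2, 12.9 and 10.5 RPKM against 37.3, 45.4 and 72.0 (-2.03 ± 0.17). FAM111B, a replication-associated protease gene, was the lowest of the genes named by size, with 2.21, 1.44 and 1.29 RPKM against 5.51, 8.41 and 14.9 (-2.58 ± 0.32). SKP2, which directs degradation of the CDK inhibitor p27, had 0.894, 0.402 and 0.914 RPKM against 1.50, 2.65 and 4.18 (-1.93 ± 0.31).

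The E2F element TTTNGCGC was present in 15 of 39 matched S phase promoters (38.5%), in 2 of 38 promoters of the G2 and M phase list (5.26%) and in 1.83% of all promoters. MCM4, MCM10, PCNA and UHRF1 were not among the 15. The stretches shown for a helicase subunit, a polymerase subunit and an E2F gene lie at chr2:135876492-135876625 (minus), chr14:49688258-49688325 (minus) and chr20:33686386-33686435 (minus), with the element in capitals. In MCM6 the capitals are longer because matches on both strands overlap.
MCM6: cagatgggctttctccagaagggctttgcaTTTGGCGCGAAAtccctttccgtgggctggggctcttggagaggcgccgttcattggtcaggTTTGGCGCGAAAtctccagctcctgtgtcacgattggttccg
POLE2: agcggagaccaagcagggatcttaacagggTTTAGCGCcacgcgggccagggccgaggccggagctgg
E2F1: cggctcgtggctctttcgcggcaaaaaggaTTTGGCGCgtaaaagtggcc
MCM6 had 9.17, 6.06 and 7.01 RPKM in replicate 3 against 15.3, 17.6 and 22.9 (-1.33 ± 0.12). E2F1, which encodes an activating E2F factor and was picked for its element, had 1.93, 1.01 and 1.51 RPKM against 3.37 to 5.99 (-1.79 ± 0.15).

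Genes of G2 and mitosis were lower by less. Of 45 tested, 2 were at least 2-fold lower and 0 higher, against 2.31% and 2.95% of all genes. At any size, 37 were lower and 1 higher, against 18.7% and 18.8% of all genes, and the median was -0.59. ANLN, a scaffold of the contractile ring, had 44.5, 48.8 and 40.6 RPKM against 86.2, 108 and 119 (-1.26 ± 0.09), and the kinesin gene KIF20A had 51.2, 24.6 and 22.8 RPKM against 54.9, 68.4 and 79.3 (-1.18 ± 0.18). MKI67, the proliferation marker, had 86.8, 57.3 and 46.3 RPKM against 94.9, 122 and 138 (-0.97 ± 0.10). All 3 genes had non-overlapping ranges and were highest with siNC or siACAT1-1 within replicate 3. In bulk libraries, fewer cells in a phase and less RNA per cell cannot be told apart.

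Replication-dependent histone genes, which supply chromatin in S phase, did not follow the other S phase genes. Of 55 listed genes 30 passed the filter on low counts, 9 were at least 2-fold higher and 0 lower in replicate 3, 14 were higher at any size, and the median was 0.86. HIST1H2AC had 16.8, 19.6 and 21.4 RPKM against 3.96, 5.22 and 9.01 (1.76 ± 0.16). HIST2H2BE had 0.974, 0.918 and 1.82 RPKM against 0.149, 0.256 and 0.759 (1.81 ± 0.38), and the linker histone HIST1H1D had 0.632, 1.06 and 0.579 RPKM against 0, 0.106 and 0.196 (2.69 ± 0.56). The genes counted here were mostly at low levels. The filter asks for enough counts in 3 libraries, so a gene could pass it through replicate 3 alone. HIST1H1D did so, with 45 counts in replicate 3 and 13 in the others. The counts of higher and lower histone genes and their median can therefore lean to the higher side. Their usual transcripts end in a stem loop without a poly(A) tail, and an mRNA kit was used. Among other RNAs with short or no poly(A) tails, NEAT1 was higher, with 173, 182 and 191 RPKM against 72.4, 82.8 and 107 (1.04 ± 0.10). The median of the 11 such RNAs tested was 0.06, with 4 higher and 0 lower at any size.

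**Figure D4:**
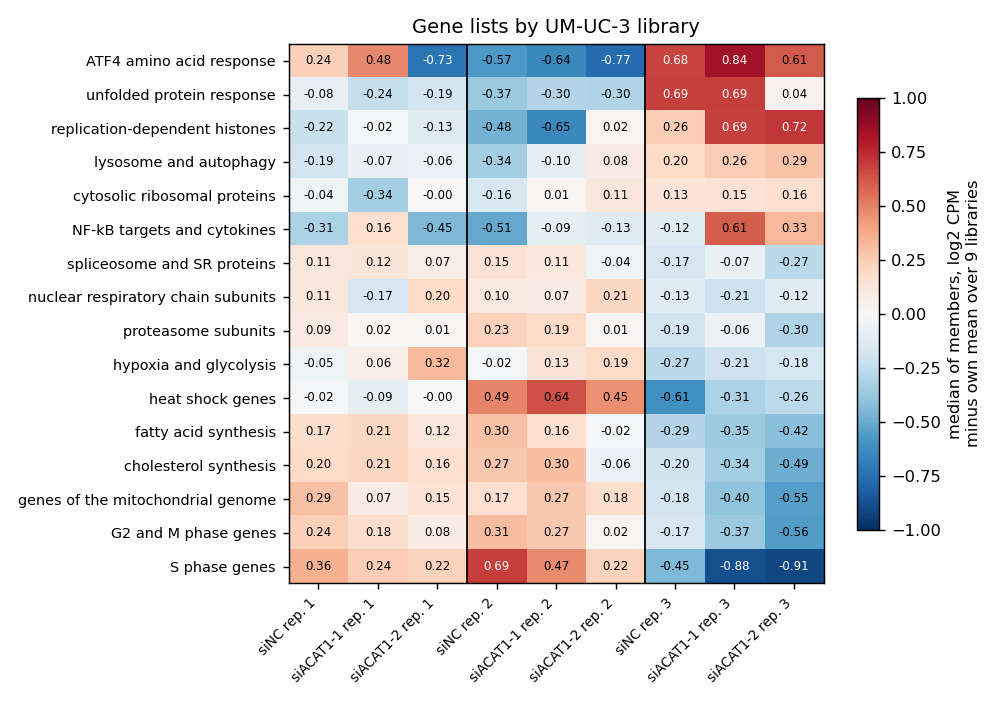
Median over the members of 16 gene lists of log2 CPM minus each gene's mean over the 9 libraries, in each UM-UC-3 library, ordered by replicate number. S phase genes range from -0.91 to -0.45 in replicate 3 and from 0.22 to 0.69 in the others, and ATF4 targets are also above 0 in siNC and siACAT1-1 replicate 1.

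Sterol and fatty acid synthesis genes were lower in replicate 3. Of 24 cholesterol synthesis genes tested, 3 were at least 2-fold lower and 0 higher, 16 were lower and 3 higher at any size, and the median was -0.58. DHCR7, a sterol reductase of cholesterol synthesis, had 2.99, 2.34 and 2.41 RPKM against 3.68, 5.94 and 6.75 (-1.16 ± 0.16). INSIG1, which retains SREBP in the endoplasmic reticulum and is itself a target of SREBP, had 2.60, 1.58 and 1.57 RPKM against 2.83, 4.37 and 5.14 (-1.18 ± 0.17). The ranges of both genes were apart. Of 14 fatty acid synthesis genes, 8 were lower and 0 higher at any size, and the median was -0.54. FASN, fatty acid synthase, had 2.90, 1.83 and 2.64 RPKM against 3.12, 5.07 and 6.60 (-1.06 ± 0.15), and the desaturase SCD had 19.7, 15.2 and 12.96 RPKM against 22.7, 32.0 and 35.7 (-0.98 ± 0.13). The sterol element CACCCCAC was present in 1 of 18 matched cholesterol promoters (5.56%) and in 2.72% of all.

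Lysosome and autophagy genes were more often higher than lower. Of 31 tested, 6 were at least 2-fold higher and 0 lower, 17 were higher and 1 lower at any size, and the median was 0.34. SQSTM1, the autophagy receptor p62, had 49.7, 98.0 and 83.0 RPKM against 17.1, 22.1 and 42.0 (1.58 ± 0.14). The membrane-conjugated GABARAPL1 had 2.52, 3.75 and 3.94 RPKM against 0.503, 0.936 and 1.26 (1.85 ± 0.16), and its relative MAP1LC3B had 8.65, 10.4 and 9.69 RPKM against 1.85, 2.21 and 5.86 (1.76 ± 0.24). WIPI1, which binds the forming membrane, had 11.9, 13.2 and 11.2 RPKM against 3.07, 3.27 and 5.85 (1.63 ± 0.16). The 4 genes had ranges that did not overlap, and SQSTM1 and WIPI1 share 20.7% and 24.3% of their exon bases with other annotated genes. The element GTCACGTG, bound by TFEB, was present in 7 of 24 matched promoters (29.2%) and in 2.53% of all.

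Genes of protein synthesis and energy supply differed by small amounts in many members. Of 77 cytosolic ribosomal protein genes, 43 were higher and 0 lower at any size and none reached 2-fold, with a median of 0.21 against 0.0057 over all genes. RPL3 had 517, 492 and 518 RPKM against 282, 341 and 395 (0.56 ± 0.10). Of the 13 genes of the mitochondrial genome, 11 were lower and 0 higher, with a median of -0.59. MT-ATP8, a subunit of ATP synthase that shares bases with MT-ATP6, had 7952, 6105 and 5959 RPKM against 10670, 11638 and 12786 (-0.84 ± 0.08). Of 74 nuclear genes of the respiratory chain, 31 were lower and 1 higher, with a median of -0.24, and of 31 proteasome genes, 18 were lower and 1 higher, with a median of -0.26. The respiratory subunit COX7B had 18.9, 12.9 and 14.0 RPKM against 20.05, 29.0 and 32.9 (-0.92 ± 0.14). Splicing factor genes were lower in 19 of 35 and higher in 4 (median -0.22), with SRSF7 at 20.2, 19.7 and 21.4 RPKM against 39.2, 40.4 and 52.2 (-1.12 ± 0.12). The hypoxia and glycolysis list was mixed, with 4 genes at least 2-fold lower and 2 higher (median -0.37). Its glycolytic enzyme PGAM1 had 31.2, 25.0 and 29.7 RPKM against 64.4, 69.5 and 91.2 (-1.37 ± 0.11), while the glucose transporter SLC2A3 had 0.636, 1.41 and 1.65 RPKM against 0.311, 0.443 and 0.633 (1.33 ± 0.18).

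Signalling lists held genes on both sides. Of 22 NF-kB targets and cytokines tested of 38, 6 were at least 2-fold higher and 1 lower, and the list median was 0.0013 with siNC, 0.43 with siACAT1-1 and 0.72 with siACAT1-2. Of the 6, LCN2 had 75 counts in replicate 3 and 34 in the others, and IL6 had 52 and 24. Both could pass the filter on low counts largely through replicate 3, so the list's counts and medians can lean to the higher side. MMP1, a collagenase, had 1.38, 7.98 and 2.95 RPKM against 0.288, 1.03 and 2.02 (1.82 ± 0.33), and the overlap came from siNC. NFKBIZ, a nuclear NF-kB cofactor, had 1.27, 6.09 and 1.63 RPKM against 0.374, 0.655 and 2.51 (1.55 ± 0.27). Of 25 immediate early genes, 4 were at least 2-fold higher and 1 lower, with siRNA group medians of -0.20, 0.32 and 0.50. ATF3, which stress and growth signals induce, had 6.07, 23.4 and 8.54 RPKM in replicate 3, 19.8 in siACAT1-1 replicate 1 and 0.717 to 4.46 in the other 5 libraries (1.82 ± 0.65). TGF-beta targets were lower in 9 of 19 and higher in 1, with a median of -0.23. The feedback inhibitors SMAD6 and SMAD7 of that pathway had log2 fold changes of -1.57 ± 0.25 and -1.02 ± 0.25, without overlap. Interferon-stimulated genes (median 0.13), p53 targets (0.07), NRF2 targets (0.06) and YAP and TEAD targets (-0.10) showed no common direction, with at most 7 of 35, 4 of 26, 5 of 24 and 3 of 22 genes in order in 1 direction. Of all genes, 18.8% were in order on the higher side and 18.7% on the lower.

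Other genes among the 15 highest included a claudin, vesicle genes and a transporter gene. All 30 genes named by size, 15 in each direction, had RPKM ranges that did not overlap, which the choice by size and order favours. CLDN1, a tight junction claudin, had 6.42, 14.1 and 7.73 RPKM against 0.421, 0.816 and 4.70 (2.67 ± 0.47). KRT7, the urothelial keratin among the line markers, was not among the 15 and had 6.38, 5.15 and 7.22 RPKM against 1.94, 2.63 and 3.72 (1.18 ± 0.16). OLAH, a thioesterase that releases fatty acids from FASN, had 0.274, 2.66 and 0.667 RPKM against 0, 0.0296 and 0.221 (4.43 ± 0.42). With such low levels elsewhere, OLAH could pass the filter on low counts largely through replicate 3. The vesicle genes RAB39B and SYTL1 had log2 fold changes of 2.77 ± 0.44 and 2.78 ± 0.34, the transporter gene SLC22A15 2.99 ± 0.28, and LURAP1L 2.49 ± 0.44. MILR1, ERICH2, OSCAR and ADAP1 ranged from 2.52 to 2.74. SYNE1-AS1 (2.51 ± 0.40) shares 55% of its exon bases with SYNE1, and ADAP1 shares 23% with COX19. In the other direction, the intermediate filament gene NES had 1.82, 1.21 and 1.97 RPKM against 5.41, 6.22 and 8.28 (-2.004 ± 0.13), and the peptide hormone gene APLN had 1.29, 1.22 and 1.03 RPKM against 3.34, 4.02 and 5.69 (-1.86 ± 0.19). NRGN, RASL11A and C1QTNF2 ranged from -2.16 to -1.90. HSP90AA2P, HNRNPA1P33 and CALM2P1 are named as processed copies of other genes, and their reads cannot be told from those of the parent genes, including HSP90AA1.

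The same lists were set beside the other contrasts of these libraries. S phase genes had a median of -0.98 for replicate 3 over 1, -1.09 for replicate 3 over 2, 0.16 for replicate 2 over 1 and -0.30 for the ACAT1 siRNAs over siNC. For the unfolded protein response the same medians were 0.68, 0.83, -0.13 and -0.10, and for cholesterol synthesis -0.54, -0.49, -0.03 and -0.10. For heat shock genes they were -0.24, -0.89, 0.49 and 0.04, so most of that list's distance lay between replicates 2 and 3. These contrasts share libraries, and their values are given side by side without a test.

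**Figure D5:**
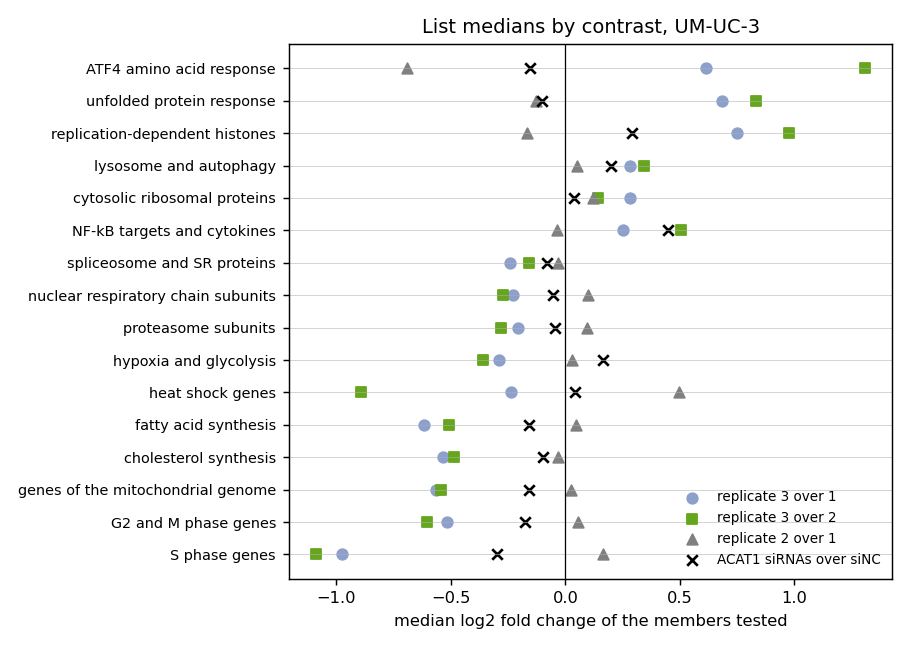
Median log2 fold change of the members tested (horizontal axis) of 16 gene lists for replicate 3 over 1, 3 over 2, 2 over 1 and both ACAT1 siRNAs over siNC in UM-UC-3 cells. For S phase genes replicate 3 lies at -0.98 and -1.09 and the siRNA contrast at -0.30, and for ATF4 targets replicates 1 and 2 themselves differ by -0.69.

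The knockdown itself was present under every number. ACAT1 (chr11:108121516-108147776, plus strand) had 47.4, 46.5 and 44.1 RPKM in siNC replicates 1, 2 and 3. It had 2.25, 3.59 and 3.29 RPKM with siACAT1-1 and 1.83, 2.79 and 1.86 with siACAT1-2. Whether the effect of the siRNAs differed between replicate 3 and the others was tested as an interaction in edgeR, and 0 of 18314 genes (0%) were called at an adjusted p under 0.05, with 246 at an unadjusted p under 0.05. DESeq2 called 2. The interaction fit leaves 3 residual degrees of freedom and holds the difference between replicates 1 and 2 in its error. The 0 calls therefore do not show that the siRNA effect was the same under every number. Within replicates 1, 2 and 3, the median log2 difference of both ACAT1 siRNAs from siNC over the 46 S phase genes was -0.18, -0.37 and -0.41, and 34 of these genes were lower with the siRNAs under all 3 numbers. The 16 genes that the study displayed in a heatmap as c-Myc targets had siRNA medians of -0.26, -0.40 and -0.39 under the 3 numbers, with 15 lower under all 3. Those genes were chosen by the study on these samples. Across replicate 3 the same 16 genes were lower by a median of -0.64, with 5 at least 2-fold lower and 14 lower at any size.

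The replicate numbers of T24 cells were not used in the choice and were tested. Replicate number, as a factor of 3 levels, was called for 7972 of 18116 genes (44%, edgeR, adjusted p under 0.05). Of the 540 genes at least 2-fold higher in UM-UC-3 replicate 3, 418 were tested in T24 cells and 282 (67.5%) were called for T24 replicate number. Of the 423 lower genes, 332 were tested and 201 (60.5%) were called. All 36 ATF4 genes tested were called, as were 36 of 46 S phase genes, 41 of 45 G2 and M phase genes, 13 of 15 heat shock genes and 1 of 14 histone genes.

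The contrast of number 3 with 1 and 2 was also tested in T24 cells. T24 replicate 3 against 1 and 2 gave 0 genes higher (0%) and 0 lower (0%) at an adjusted p under 0.05 in edgeR, with 1685 at an unadjusted p under 0.05 and 128 called by DESeq2. Libraries of 1 number deviated together in T24 cells, and with the replicate block the same contrast called 1370 genes higher (7.56%) and 1186 lower (6.55%). That fit leaves the difference between numbers 1 and 2 out of its error and treats the libraries of number 3 as independent. Its calls show that these numbers differed, not that number 3 stood further apart than other numbers do. Of the 418 genes higher in UM-UC-3 replicate 3, 28 were then called higher in T24 replicate 3 (6.70%) and 55 lower (13.2%). Of the 332 lower genes, 40 were called higher (12.05%) and 22 lower (6.63%). The T24 median for replicate 3 was 0.10 for ATF4 targets, -0.29 for the unfolded protein response, -0.34 for S phase genes and 0.24 for G2 and M phase genes. For T24 replicate 2 over 1 and 3, a contrast that shares these libraries and is given without a test, the medians were 0.70, 0.28, -0.41 and -0.96, each in the direction of UM-UC-3 replicate 3. Heat shock genes (-0.66) and genes of the mitochondrial genome (-0.71) also lay in that direction in T24 replicate 2, while cytosolic ribosomal protein genes (-0.49) lay in the other and histone genes were at 0.04. The labels do not say that a number marks the same experiment in both lines.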

How the data were processed

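Stranded mRNA libraries with molecular identifiers were prepared from 18 samples and sequenced on an Illumina NovaSeq. Per the labels and the paper's methods, the authors trimmed reads (Trimmomatic 0.36), aligned them to GRCh38 (STAR 2.5.3) and counted them on exons with featureCounts (Subread 1.5.1). The deposited counts cover 39496 genes without normalization. The deposited RPKM values divide these counts by gene length and by the sample's reads on genes. Annotation release, strand setting, reads that map to several genes and collapse of molecular identifiers are not given in the sources used here. The counts table holds 26 names that appear as dates and 2 repeated names.

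Counts were fitted in R 4.3.3 with edgeR 4.0.16 (TMM, filterByExpr by group, quasi-likelihood), separately for each cell line. The filter asks for enough counts in 3 libraries, which replicate 3 alone can supply. The UM-UC-3 model held the siRNA and replicate 3. Log2 CPM used a prior count of 2, and a large difference was at least 2-fold. Adjusted p values are Benjamini-Hochberg over all genes tested. The members and gene lists were chosen with earlier results of these data known. Genes were named by rule as the 15 highest and 15 lowest log2 fold changes in order in all 3 siRNA groups with at least 1 RPKM in the higher group, up to 4 members of each list with the largest absolute log2 fold change, and ACAT1; 1 gene that the rule names is not reported here. Of 1060 entries in 38 lists, 1055 matched the table. Alternatives used DESeq2 1.42.0, other scalings, filters and folds, the deposited RPKM and omission of each library. The steps were tested on simulated counts. Replicates are separate samples of a group, and nothing states that they are separate cultures beyond the label, so p values measure the spread between these samples. With the replicate number as a factor, the difference between numbers is left out of that spread.

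Deviations from group means correlated across genes between libraries sharing a number. The r was 0.149 to 0.647 over 9 UM-UC-3 pairs and 0.424 to 0.741 over 9 T24 pairs. Libraries of different numbers had r of -0.620 to 0.327 over 18 UM-UC-3 pairs and -0.624 to 0.234 over 18 T24 pairs. The UM-UC-3 ranges overlapped through the replicate 1 pairs (0.149, 0.166 and 0.220). There, siACAT1-2 replicate 1 had higher r with siNC and siACAT1-1 replicate 2 (0.264 and 0.327). The numbers were taken as pairing libraries within a line, which these values do not show for UM-UC-3 replicate 1.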

Additional observations from a re-analysis of the deposited data

Results flagged for a closer look

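The contrast of replicate 3 with replicates 1 and 2 had opposite signs in the 2 cell lines, in every siRNA group, for 8 gene lists. The T24 medians for replicate 2 over 1 and 3 had the sign of UM-UC-3 replicate 3 for all 8 lists, and T24 replicate 2 is among the libraries that T24 replicate 3 was set against. These differences between lines were not tested, and the labels do not say that a number marks the same experiment in both lines. The UM-UC-3 median log2 fold change was 0.79 for the unfolded protein response, where the T24 medians were -0.13, -0.21 and -0.24 with siNC, siACAT1-1 and siACAT1-2. For lysosome and autophagy genes it was 0.34, against -0.35, -0.34 and -0.32. Circadian clock genes had 0.39 against -0.20, -0.10 and -0.19, and NF-kB targets and cytokines had 0.26 against -1.26, -0.63 and -0.43. In the other direction, genes of the mitochondrial genome had -0.59 against 0.43, 0.44 and 0.46, and G2 and M phase genes -0.59 against 0.07, 0.25 and 0.64. Fatty acid synthesis genes had -0.54 against 0.22, 0.12 and 0.18, and hypoxia and glycolysis genes -0.37 against 0.31, 0.60 and 0.28. For T24 replicate 2 the medians of these lists, in the order given, were 0.28, 0.57, 0.55, 1.91, -0.71, -0.96, -0.38 and -0.64.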

How the results depend on the processing

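Without the filter on low counts, 903 genes were at least 2-fold higher in UM-UC-3 replicate 3, the interaction called 32 genes, T24 replicate 3 called 586, and the pairs 3 and 1, 3 and 2 and 2 and 1 gave 2437, 3513 and 2252 genes, against 540, 0, 0, 916, 1655 and 446 with it. A fold of 1.5 gave 1467 higher and 1340 lower genes and 2797, 4502 and 1503 in the pairs, and a fold of 3 gave 143 and 99. The deposited RPKM gave 169 and 83. DESeq2 called 2 genes for the interaction and 128 for T24 replicate 3. With the replicate block the T24 contrast called 2556 genes against 0, and the block changed no other call (563 higher and 396 lower genes in UM-UC-3, interaction 0). With 1 library left out at a time, 556 to 770 genes were higher and 404 to 645 lower by at least 2-fold, 3727 to 4896 and 3588 to 4651 at any size, 0 for the interaction, 0 for T24 replicate 3 and 6312 to 7391 for T24 replicate number. The highest of the UM-UC-3 values came without siNC replicate 3, which asks for order in 2 siRNA groups only. List medians turned sign 4 times, to -0.98 for the immune list without the filter, to -0.00787 and -0.0101 for ERK feedback genes without the siACAT1-2 libraries or its replicate 3 alone, and to -0.00978 for immediate early genes without siACAT1-2 replicate 3. With 1 library left out, the immediate early median ran from -0.00978 to 0.426 and the ERK feedback median from -0.0101 to 0.292. No named gene in order in all 3 groups changed sign under the alternatives run. The cause of these changes was not tested. Depth limits genes with few counts, such as GDF15 and HIST1H1D, which had libraries at 0.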

Other observations

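Lists outside the comparisons above differed little with replicate 3 or rested on few genes. Of 11 urothelial differentiation genes tested of 26, 2 were at least 2-fold higher, KRT7 and PPARG, a nuclear receptor of urothelial cells, at 0.448, 0.332 and 0.217 RPKM against 0.0876, 0.131 and 0.190 (log2 fold change 1.28 ± 0.35). Of 18 HLA and antigen processing genes, 5 were higher and 2 lower at any size, with HLA-E at 43.6, 45.8 and 45.3 RPKM against 25.6, 26.5 and 33.4 (0.65 ± 0.10) and the trimming peptidase ERAP2 at 0.960, 0.611 and 1.16 RPKM against 0.993, 1.20 and 1.87 (-0.61 ± 0.15). Mesenchymal genes had a median of -0.06 and no common direction. The matrix protein gene TNC had 5.14, 9.31 and 6.31 RPKM against 2.62, 3.06 and 4.49 (0.99 ± 0.10), and SPARC had 14.2, 10.3 and 17.3 RPKM against 17.5, 21.1 and 28.9 (-0.75 ± 0.11). Ribosome biogenesis genes had a median of 0.02, with 3 of 35 higher and 7 lower at any size, against 18.8% and 18.7% of all genes. Among G0 and quiescence genes (median 0.22), YPEL5 had 12.04, 15.6 and 13.2 RPKM against 4.72, 6.08 and 7.12 (1.15 ± 0.12). The metallothionein MT2A had 471, 335 and 361 RPKM against 397, 513 and 609.8 (-0.46 ± 0.12), and 3 of 12 genes of its list were tested. Glucocorticoid targets had a median of 0.09, extracellular matrix genes 0.03, ERK feedback genes 0.21 and fibroblast markers -0.08.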
